A study of Mus musculus with 7 samples.

Results

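The proteasome subunits and their helper proteins were described in sorted satellite cells, from which muscle fibres regenerate, of geriatric and young mice. They were the genes whose name on the array starts with Psma to Psmg and a number, without the immunoproteasome genes Psmb8, Psmb9, Psmb10, Psme1 and Psme2. The rule gave 44 genes of 36406 gene or transcript names on the array, read by 54 of its 55681 probes. It uses names and no measured values, but the genes were chosen with earlier results of these data known. Of these genes 16 encode the core particle, 17 the regulatory particle, 7 chaperones of assembly, and 3 activators or an inhibitor. The remaining gene, Psmc3ip, shares only the name: it encodes a recombination factor named for binding Psmc3, and it is no subunit.

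All mice were male C57BL/6. The geriatric arrays came from mice aged 28, 28, 29 and 30 months (replicates 1 to 4) and the young arrays from mice aged 2, 2 and 3 months (replicates 1 to 3). The cells were gated as positive for integrin α7 and CD34 and negative for CD31, CD45, CD11b and Sca1, from muscle that had not been injured. Their RNA was amplified by a method for very small populations and hybridised to 1-colour Agilent arrays. The sources used here do not say whether mice were pooled. The p-values therefore rest on the variation among these samples, part of which may be technical. Geriatric replicates 1 and 2 share a sample name, and their signals lay within 2 combined errors in 95.4% of probes, a share that was 59.6% to 67.0% between arrays of different samples. They were averaged and counted as 1 sample, which left 3 geriatric and 3 young samples.

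The proteasome is the protease that degrades proteins tagged with ubiquitin. Its core particle is a barrel of α rings, which gate the entrance, and β rings, which hold the proteolytic sites of Psmb6 (caspase-like), Psmb7 (trypsin-like) and Psmb5 (chymotrypsin-like). The regulatory particle caps the barrel: its base holds 6 ATPases that unfold substrates, and its lid holds Psmd14, the protease that removes the ubiquitin chain. In mice, loss of the base ATPase Psmc4 from satellite cells depletes these cells.

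The values below are signals of probes, designed oligonucleotides of 60 bases. The probes of 3 catalytic subunits are shown because the account of the proteolytic and deubiquitinating sites rests on them, and both probes of the α subunit Psma4 are shown because they read separate stretches of 1 transcript. All lie on mm9, with their coordinates as the array files give them, and are written 5′ to 3′ in the sense of the transcript. Psmb5 lies at chr14:55233161-55233220 on the minus strand, Psmb7 at chr2:38468966-38489385 on the minus strand, Psmd14 at chr2:61599058-61599117 on the plus strand, and the Psma4 probes at chr9:54802741-54804087 (first) and chr9:54804685-54805444 (second) on the plus strand. The ranges of Psmb7 and Psma4 are longer than the probe, so these probes join 2 exons. This held for 12 of the 54 probes, which cannot pair along their whole length with genomic DNA at the listed place. Other places in the genome were not searched.
Psmb5: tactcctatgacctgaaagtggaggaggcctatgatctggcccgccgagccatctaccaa
Psmb7: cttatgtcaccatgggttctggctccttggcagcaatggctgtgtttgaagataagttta
Psmd14: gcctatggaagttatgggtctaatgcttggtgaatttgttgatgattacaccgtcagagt
Psma4, first: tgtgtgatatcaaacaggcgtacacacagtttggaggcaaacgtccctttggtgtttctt
Psma4, second: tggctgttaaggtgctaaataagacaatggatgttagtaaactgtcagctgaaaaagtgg

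Between 38057 and 41301 probes per array were well above background, and 27410 features (1 per gene, the brightest probe) were so on at least 3 arrays and were tested. Of the satellite cell markers 8 of 8, among them Pax7, were well above background on every array. Itgam, the gene of the CD11b antigen used to exclude cells, nevertheless gave a bright signal in both groups. Levels are log2 signal relative to the 75th percentile of the array, and differences are geriatric minus young on the same log2 scale. Per-sample values are given in the order averaged sample, replicate 3 and replicate 4 for geriatric cells, and replicates 1 to 3 for young cells.

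Proteasome RNA differed little between geriatric and young satellite cells. Of the 44 genes, 42 were well above background on all 7 arrays, and the other two, Psma8 and Psmb11, on 0 arrays. None of the 42 passed the test (limma, Benjamini-Hochberg over all features, smallest adjusted p = 0.708), and 0 had an unadjusted p under 0.05. Over all features 0.0255% passed (0.0109% higher and 0.0146% lower in geriatric cells), and 7.22% had an unadjusted p under 0.05 (4.42% higher and 2.81% lower). Every one of the 42 differed by less than 0.5 log2 units, as did 75.4% of all features and 81.2% of those well above background on every array. The 95% interval of the difference lay within 1 log2 unit of 0 for 38 of the 42, or 90.5%. The share was 52.5% of all features and 59.8% of those well above background on every array. The others of the 42 were Psmd8, Psmd10, Psmg1 and Psmc3ip. The interval lay within 0.5 log2 units of 0 for only 7 of the 42, so larger differences are not excluded for most.

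The differences leaned down without being called. They were below 0 for 34 of 42 genes (81.0%), against 50.3% of all features, and above 0 for the other 8, against 49.7%. The median was -0.14, against -0.0023 over all features. Groups did not overlap for 5 of 42 genes, all lower in geriatric cells (Psma5, Psmc1, Psmd12, Psmd14 and Psme3). That is 11.9% of the genes, where 12.8% of all features had groups that did not overlap in either direction, 5.65% in the lower and 7.19% in the higher one. Since these are bulk samples, fewer cells of a type and less RNA per cell cannot be told apart.

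**Figure D1:**
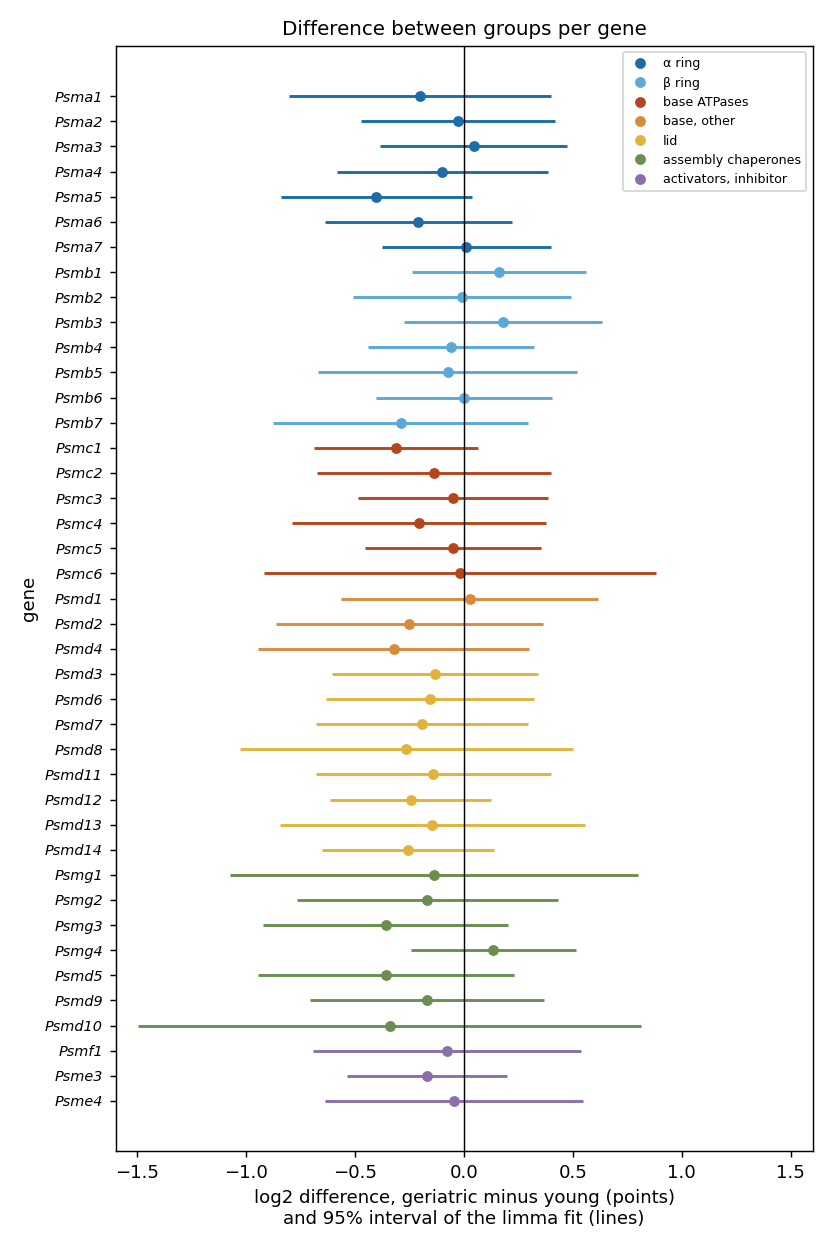
Log2 difference, geriatric minus young (horizontal axis), for the tested proteasome genes without Psmc3ip, ordered by place in the complex; points are the differences and lines their 95% intervals from limma with 3 samples per group. All intervals include 0, and the points lie mostly left of it in the base, the lid and the chaperones.

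The core particle was nearly level between groups. Of its 14 tested subunits 5 were higher and 9 lower in geriatric cells, with a median difference of -0.04 and a range from -0.40 to 0.18. In the α rings, 2 of 7 were higher. Psma5 had the largest difference among the tested subunits: it was at 1.14, 0.98 and 0.73 in geriatric cells, against 1.24, 1.43 and 1.38 in young cells. The groups did not overlap, with all geriatric samples below the lowest young one. The log2 difference was -0.40 (SE 0.18, 95% interval -0.84 to 0.04, limma adjusted p = 0.708).

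Psma6 was the α subunit with the next smallest p. It was at 3.56, 3.17 and 3.41 in geriatric cells, against 3.68, 3.55 and 3.53 in young cells, a difference of -0.21 (SE 0.17, limma adjusted p = 0.859). Without geriatric replicate 3 it was -0.10. The groups overlapped, because the averaged geriatric sample lay among the young ones. The other α subunits differed by -0.20 (Psma1), -0.10 (Psma4), -0.03 (Psma2), 0.01 (Psma7) and 0.04 (Psma3). The Psma4 probes printed above gave -0.10 (second, the brighter) and -0.01 (first). Psma8, which replaces an α subunit in the testis, was one of the genes not well above background.

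Of the 7 tested β subunits 3 were higher and 4 lower, with a median difference of -0.01. The 3 proteolytic subunits did not move together. Psmb5 was at 4.23, 3.44 and 3.77 in geriatric cells, against 3.96, 3.96 and 3.75 in young cells. The averaged geriatric sample was the highest of all and replicate 3 the lowest, so the geriatric values enclosed the young ones. The difference was -0.08 (SE 0.24, 95% interval -0.67 to 0.52, limma adjusted p = 0.971), and the second Psmb5 probe gave -0.19.

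Psmb6 was at 3.80, 3.77 and 3.66 in geriatric cells, against 3.85, 3.83 and 3.56 in young cells, with means of 3.75 ± 0.07 and 3.74 ± 0.16 (SD, n = 3). Its 95% interval ran from -0.40 to 0.41 (limma adjusted p = 0.999). Psmb7 was at 3.23, 3.15 and 2.74 in geriatric cells, against 3.31, 3.65 and 3.04 in young cells, a difference of -0.29 (SE 0.24, limma adjusted p = 0.856). Geriatric replicate 4 was its lowest sample and young replicate 2 its highest, and the groups overlapped. The difference was -0.14 without the first of these, -0.13 without the second and -0.44 without young replicate 3.

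Among the structural β subunits Psmb1 had the smallest p. It was at 3.25, 3.24 and 3.46 in geriatric cells, against 3.27, 3.16 and 3.04 in young cells, a difference of 0.16 (SE 0.16, limma adjusted p = 0.890), which came to 0.09 when geriatric replicate 4 was left out and to 0.10 when young replicate 3 was. Psmb3 differed by 0.18, Psmb2 by -0.01 and Psmb4 by -0.06. Psmb11, the β subunit of the thymus, was the other gene not well above background.

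The regulatory particle was lower in geriatric cells in 16 of its 17 subunits (94.1%, against 50.3% of all features), all but Psmd1, by small amounts. The direction turned when the slide row was a block (8 of 17 lower, median 0.017). That fit compares only the array of geriatric replicate 1 with the young arrays, because the other row of the slide holds no young array. As reported, the median difference was -0.16 and the range -0.32 to 0.03. In 3 of the 17 (17.6%), all lower, the groups did not overlap, against 12.8% of all features in either direction and 5.65% in the lower one. None passed the test (smallest adjusted p = 0.744 with limma).

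In the base, all 6 ATPases were lower, with a median of -0.09. Psmc1 was at 2.63, 2.47 and 2.71 in geriatric cells, against 2.94, 2.92 and 2.89 in young cells. The young samples lay within a narrow band and every geriatric sample lay below it. The difference was -0.31 (SE 0.15, 95% interval -0.69 to 0.06, limma adjusted p = 0.744), and the second Psmc1 probe gave -0.20.

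Psmc4, the ATPase whose loss depletes satellite cells in mice, was at 3.21, 2.50 and 2.81 in geriatric cells, against 3.24, 3.04 and 2.86 in young cells. The averaged geriatric sample matched the young values, and the other two geriatric samples lay below them. The difference was -0.21 (SE 0.24, limma adjusted p = 0.906). It was -0.04 without geriatric replicate 3, -0.11 without young replicate 1, -0.39 without the averaged sample, and 0.17 with the slide row as a block. The other ATPases differed by -0.14 (Psmc2), -0.05 (Psmc3), -0.05 (Psmc5) and -0.02 (Psmc6).

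The base also holds 3 subunits that are no ATPases. Psmd4, a receptor for ubiquitin chains, was at 2.69, 1.96 and 2.72 in geriatric cells, against 2.86, 2.65 and 2.82 in young cells, a difference of -0.32 (SE 0.25, limma adjusted p = 0.849) in which geriatric replicate 3 alone was far from the rest. Without that replicate it was -0.08, and with the slide row as a block -0.09. Psmd2, a scaffold that docks ubiquitin-processing factors, was at 3.43, 3.12 and 2.61 in geriatric cells, against 3.24, 3.45 and 3.22 in young cells, a difference of -0.25 (SE 0.25, limma adjusted p = 0.889). Here replicate 4 was the lowest sample, and the difference was -0.03 without it, -0.44 without the averaged sample, and 0.09 with the slide row as a block. Psmd1, the other large scaffold, was 0.03 higher.

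All 8 lid subunits of the Psmd series, as the name rule takes them, were lower, with a median of -0.17 and a range from -0.26 to -0.13. Psmd14, the deubiquitinating subunit, was at 0.79, 0.70 and 0.80 in geriatric cells, against 1.18, 1.01 and 0.88 in young cells. The groups did not overlap, though the gap between the highest geriatric and the lowest young sample was narrow. The difference was -0.26 (SE 0.16, 95% interval -0.65 to 0.14, limma adjusted p = 0.802).

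Psmd12, a structural lid subunit, was at 2.42, 2.31 and 2.26 in geriatric cells, against 2.52, 2.56 and 2.65 in young cells. These groups did not overlap either, and the difference was -0.25 (SE 0.15, 95% interval -0.61 to 0.12, limma adjusted p = 0.798). The remaining lid subunits, Psmd3, Psmd6, Psmd7, Psmd8, Psmd11 and Psmd13, overlapped between groups.

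**Figure D2:**
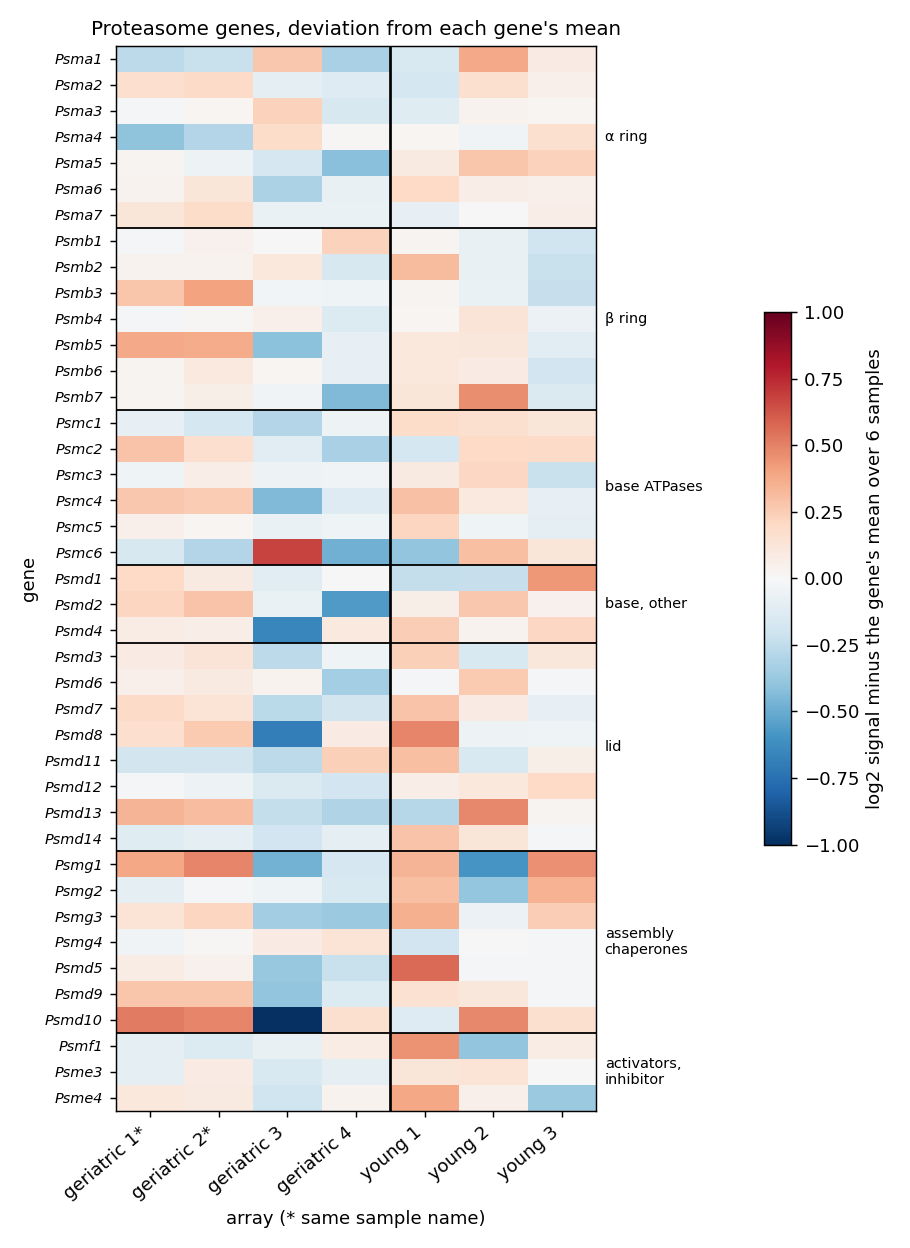
Log2 signal of each tested proteasome gene without Psmc3ip (rows) on each of the 7 arrays (columns, geriatric left of the line), as the deviation from the gene's mean over the 6 samples; red is above and blue below the mean. The pale field shows how small most deviations were, and blue gathers in geriatric replicates 3 and 4.

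Of the 3 geriatric samples, 2 lay below the young mean in the median of the regulatory particle. Against the young mean, its median was 0.017 on the array of geriatric replicate 1, 0.04 on that of replicate 2, -0.31 in replicate 3 and -0.22 in replicate 4. The number of lower subunits was 8, 7, 16 and 15 of 17 in the same order. The core particle gave 0.012, 0.04, 0.02 and -0.14, so that among geriatric arrays only replicate 4 was below the young mean in its core median. Without the averaged sample the median of the regulatory particle was -0.28, and without replicate 3 it was -0.08.

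The position on the slide is partly confounded with the groups. The young arrays and geriatric replicate 1 lay in slide row 1, and geriatric replicates 2, 3 and 4 in row 2. No young array lies in row 2, so a block for the row and a fit within row 1 alone make the same comparison. In it 1 geriatric array stands against 3 young ones, and an effect of the row cannot be told from the choice of sample. The median of the regulatory particle was then 0.017 with 8 of 17 subunits lower, and that of the core particle was 0.012. The 2 arrays of the shared sample lie in different rows, and between them (row 2 minus row 1) the regulatory particle differed by a median of -0.017 and the core by 0.04, against 0.015 over all features.

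Markers of other cell types were read beside these values. Of 5 tested endothelial markers 3 were higher and 2 lower in geriatric cells (median difference 0.14). Of 5 tested pericyte and smooth muscle markers 2 were higher and 3 lower (median -0.23). None of these passed the test (limma, smallest adjusted p = 0.768). Of the 8 satellite cell markers 5 were higher and 3 lower (median 0.06). Groups did not overlap for 1, Itga7 (12.5%, against 12.8% of all features), with a difference of -0.44 (limma adjusted p = 0.704). Of 8 markers of fibro-adipogenic progenitors, the stromal cells of muscle, 7 were tested and 6 were well above background on every array, while Pdgfra was so on 0 arrays. In geriatric cells 5 of the 7 were higher and 2, Col1a1 and Col3a1, lower, and none passed the test (limma, smallest adjusted p = 0.36). The median difference was 1.10. An unadjusted p (limma) was under 0.05 for 3 of the 7, all higher, against 4.42% of all features. Groups did not overlap for 2 of the 7, Dpt and Mfap5, both higher, against 7.19% of all features. The summed level of the 7 (log2) was 5.44, 5.68 and 5.40 in geriatric cells, against 5.04, 5.41 and 5.01 in young cells, with overlapping groups. This sum rests mostly on Col3a1 and Dcn, the brightest of the 7. The members did not share an order over samples: Dcn was at 2.55, 4.37 and 4.32 in geriatric cells, against 2.47, 2.56 and 1.54 in young cells, and Col3a1 at 5.14, 4.78 and 4.34 in geriatric cells, against 4.71, 5.15 and 4.80 in young cells.

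All 5 tested myofibre markers were higher in geriatric cells, with a median difference of 0.35, and none passed the test (limma, smallest adjusted p = 0.79). Their summed level was 1.70, 1.64 and 2.72 in geriatric cells, against 1.81, 1.91 and 1.51 in young cells. Geriatric replicate 4, one of the samples with a low regulatory particle, was the highest sample for 4 of the 5. It was also the highest for 4 of the 5 tested macrophage and leukocyte markers. Only 4 of the myofibre markers and 3 of the macrophage and leukocyte markers were well above background on every array. The dim ones (Ckm, Cd68 and Emr1) are among those highest in replicate 4. The summed level of the macrophage and leukocyte markers was 6.58, 6.60 and 6.84 in geriatric cells, against 6.66, 6.66 and 6.52 in young cells. This sum is almost wholly Itgam, the brightest of them. Itgam alone was at 6.51, 6.52 and 6.78 in geriatric cells, against 6.60, 6.59 and 6.44 in young cells. The part of these cell types in the result was not tested.

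**Figure D3:**
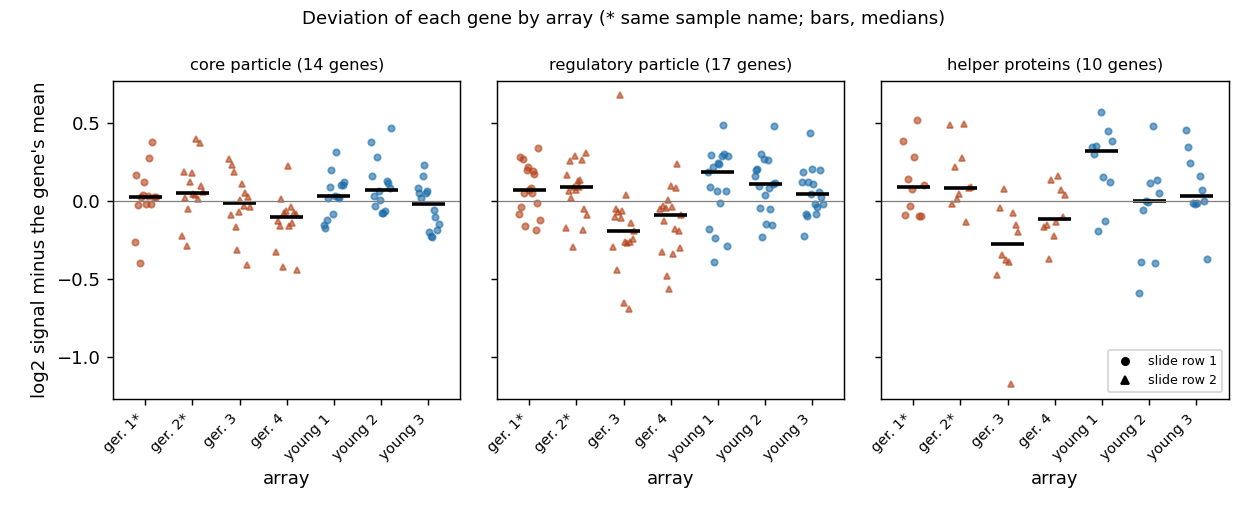
Deviation of each gene from its mean over the 6 samples (log2, vertical axis) by array, for the 14 core subunits, the 17 regulatory subunits and the 10 helper proteins (chaperones, activators and inhibitor); circles are slide row 1, triangles row 2, and bars medians. In the regulatory particle the medians of geriatric replicates 3 and 4 lie below 0 and the others above it.

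Subunits of the core also varied less between samples than most features. The median SD within groups was 0.17 log2 units in the core, 0.25 in the regulatory particle and 0.29 among the helper proteins, against 0.36 over all tested features and 0.31 over those well above background on every array. The comparison carries no test, and it sets bright probes against a mixture of bright and dim ones.

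Most helper proteins were lower in geriatric cells, and none passed the test (limma, smallest adjusted p = 0.807). Of the 7 chaperones 6 were lower in geriatric cells, with a median of -0.17. Psmg3, which helps to build the α ring, was at 0.13, -0.39 and -0.42 in geriatric cells, against 0.31, -0.11 and 0.20 in young cells, a difference of -0.36 (SE 0.23, limma adjusted p = 0.807). Psmd5, a chaperone of base assembly, was at 1.89, 1.46 and 1.61 in geriatric cells, against 2.40, 1.82 and 1.81 in young cells, a difference of -0.36 (SE 0.24, limma adjusted p = 0.814), which was -0.16 without young replicate 1. In both genes the averaged geriatric sample lay within the young range and replicates 3 and 4 below it.

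Psmg4 was the chaperone that was higher, by 0.14, while Psmg1, Psmg2, Psmd9 and Psmd10 were lower, with differences from -0.34 to -0.14. Of the activators and the inhibitor, Psme3, which encodes the nuclear activator, was at 5.13, 4.98 and 5.03 in geriatric cells, against 5.25, 5.26 and 5.13 in young cells. The groups did not overlap, by a margin within the rounding of these values, and the difference was -0.17 (SE 0.15, limma adjusted p = 0.871). Psmf1, the inhibitor, was at 0.31, 0.35 and 0.50 in geriatric cells, against 0.87, 0.03 and 0.50 in young cells, a difference of -0.08 (SE 0.25, limma adjusted p = 0.971) across a wide young range. Psme4, the other activator, differed by -0.04.

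Of the 42 tested genes 10 had 2 tested probes, and 9 of these pairs had the same sign. The largest gap between the probes of a gene was 0.37 (Psmd10, -0.34 for the brighter and 0.03 for the dimmer probe). For Psmd14, Psmb6, Psmb7 and Psma5 the value rests on 1 probe.

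Of the 5 immunoproteasome genes that the rule left out, Psme1 differed by -0.02 (limma adjusted p = 0.989) and Psme2 by 0.08 (limma adjusted p = 0.967). The groups overlapped for both, and the dimmer probes of Psme2 each gave 0.25. The others encode subunits that replace the proteolytic subunits of the core when cells meet interferon. Psmb8 takes the place of Psmb5, Psmb9 that of Psmb6, and Psmb10 that of Psmb7. For each pair the log2 difference of the 2 signals was taken within a sample. Only its change between groups can be read, because 2 probes do not share a scale. Psmb8 minus Psmb5 was -1.89, -1.48 and -1.97 in geriatric cells, against -3.35, -2.17 and -3.28 in young cells. The groups did not overlap, and the means differed by 1.15 (two-sided exact permutation p = 0.1, the smallest that 3 against 3 samples allow, adjusted p = 0.15 over 3 pairs).

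Psmb10 minus Psmb7 was -0.37, -0.34 and -0.06 in geriatric cells, against -0.74, -1.22 and -0.87 in young cells, a change of 0.69 (exact permutation p = 0.1, adjusted p = 0.15). These groups did not overlap either. Psmb9 minus Psmb6 was -3.69, -4.23 and -4.79 in geriatric cells, against -4.95, -4.12 and -5.35 in young cells, a change of 0.57 (exact permutation p = 0.3, adjusted p = 0.3) with overlapping groups. This permutation test cannot reach the threshold with 3 samples against 3.

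In the first pair the change lay almost wholly in the induced subunit. Psmb8 was at 2.34, 1.96 and 1.80 in geriatric cells, against 0.60, 1.79 and 0.47 in young cells, where young replicate 2 nearly reached the geriatric values. Its difference was 1.08 (SE 0.40, limma adjusted p = 0.646), beside the -0.08 of Psmb5. In the pair of Psmb10 and Psmb7 both sides contributed, with differences of 0.40 and -0.29. Leukocytes also express these subunits. Of their 5 tested markers 3 were higher in geriatric cells, and Lyz2 and Cd52 were well above background on 0 arrays. The summed levels given above are almost wholly those of Itgam. Their part in these changes was not tested.

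**Figure D4:**
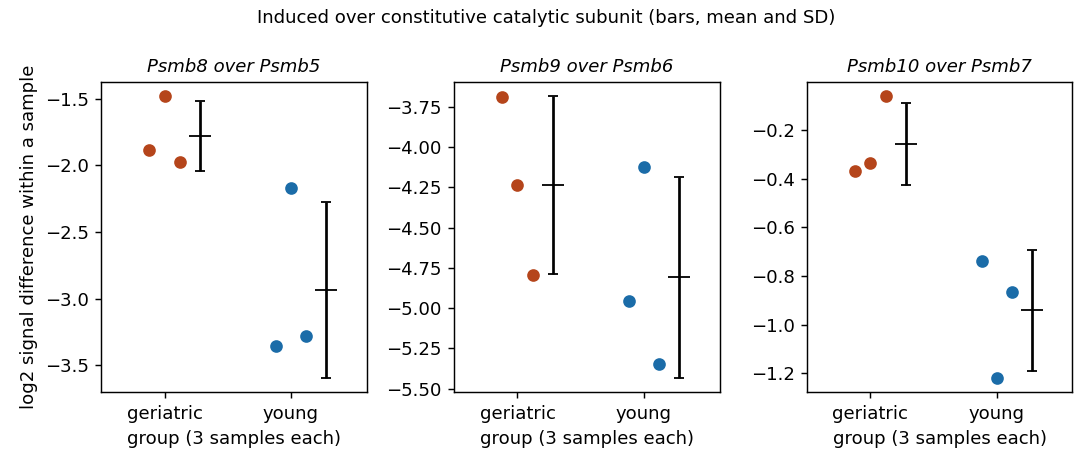
Log2 signal of the immunoproteasome subunit minus that of the constitutive subunit it replaces (vertical axis), by group, for the 3 pairs; each point is a sample, and the bars are the group mean ± SD (n = 3). Geriatric points lie above all young points for Psmb8 over Psmb5 and Psmb10 over Psmb7, and overlap them for Psmb9 over Psmb6.

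Other genes of the ubiquitin proteasome system differed little as well. Of 28 tested genes 9 were higher and 19 lower in geriatric cells (67.9% lower, against 50.3% of all features), with a median of -0.11. None passed the test (limma, smallest adjusted p = 0.719). Groups did not overlap for 17.9% of the 28, against 12.8% of all features in either direction. These were 4 lower genes (Uchl5, Nploc4, Pomp and Vcp) and 1 higher gene (Fbxo7), against 5.65% of all features lower and 7.19% higher. Uchl5, a deubiquitinase bound to the regulatory particle, was at -1.09, -0.95 and -1.62 in geriatric cells, against -0.90, -0.69 and -0.12 in young cells, a difference of -0.65 (SE 0.29, limma adjusted p = 0.719) without overlap, and of -0.42 without young replicate 3. The next 2 lower genes by p were Ube3c, a ubiquitin ligase that acts at the proteasome, with a difference of -0.35 (limma adjusted p = 0.790), and Ubqln4, a shuttle of ubiquitinated proteins, with -0.35 (limma adjusted p = 0.839). Leaving out young replicate 1 gave -0.10 for Ubqln4, and leaving out young replicate 3 gave -0.53.

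Fbxo7, an F-box protein that binds the proteasome inhibitor Psmf1, was at 1.61, 1.46 and 1.54 in geriatric cells, against 1.05, 1.21 and 1.37 in young cells, a difference of 0.32 (SE 0.16, limma adjusted p = 0.754) without overlap. Ddi2, the protease that activates the transcription factor Nfe2l1, differed by 0.27 (limma adjusted p = 0.855, with 0.16 without geriatric replicate 4 and 0.44 without geriatric replicate 3), and Ubb, a ubiquitin gene, by 0.14 (limma adjusted p = 0.904). Nfe2l1, which drives proteasome genes when the protease is inhibited, differed by 0.22 (SE 0.28, limma adjusted p = 0.918). Among partners of the complex itself, Adrm1, a ubiquitin receptor of the regulatory particle, differed by -0.21, Shfm1, a small lid subunit, by 0.02, and Pomp, the chaperone of core maturation, by -0.15.

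Nfe2l1 binds antioxidant response elements. The letters TGACNNNGC were searched on both strands of the RefSeq promoters (GRCm38.p6), from 250 bases upstream to 50 bases downstream of each gene's start. They occurred in 6 of 38 promoters of the proteasome genes (15.8%), against 12.4% of the 32851 promoters in the table, in 2 of 13 promoters of the core (15.4%) and in 2 of 15 of the regulatory particle (13.3%). These shares lie near the background, and promoters were at hand for 36 of the 44 genes. Psmd9, Psmc6 and a further gene of the 6 also held a match, which is not shown. The matches of the proteolytic subunits Psmb5 and Psmb6 and of the lid subunit Psmd12 are shown with the match in capitals. They lie at chr14:54618023-54618052 (minus strand), chr11:70525327-70525356 (plus strand) and chr11:107479278-107479307 (plus strand, match on the opposite strand) of GRCm38.p6.
Psmb5: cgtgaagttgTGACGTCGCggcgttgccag
Psmb6: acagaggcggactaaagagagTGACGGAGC
Psmd12: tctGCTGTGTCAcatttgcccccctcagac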

How the data were processed

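RNA of sorted satellite cells was measured on 7 one-colour arrays on 1 slide. Per the file headers, the authors' scanner output came from Agilent Feature Extraction 10.7.3.1, and its processed signal is a background-corrected intensity with probe coordinates on mm9. The authors' deposited log2 values served as an alternative. Here the log2 intensity was taken relative to each array's 75th percentile, spots of a probe were averaged, and control spots and outlier spots were left out. A probe was tested if it was well above background on at least 3 arrays, and the brightest such probe stood for its gene. Geriatric replicates 1 and 2 were averaged. Differences were tested with limma 3.58.1 in R 4.3.3 (lmFit and eBayes, two-sided, Benjamini-Hochberg over all 27410 features, threshold 0.05). The script was tested on simulated data. The number of arrays limits the precision.

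The genes and lists were chosen with earlier results of these data known. Full values are given for genes past the threshold (none), the 2 smallest unadjusted p in each class, Psmb5, Psmb6, Psmb7 and Psmd14, genes not well above background on 1 or more arrays, genes whose probes differed by 1 log2 unit or more (none), and the 3 smallest p in each direction among other genes of the system. Genes named beyond these, such as Psmd8, Psmd10, Psmg1, Psmc3ip, Dcn and Col3a1, were chosen after their values were seen. Alternatives were other background corrections, scalings, filters and probe rules, the 7 arrays kept separate, blocks for slide row and sample number, and leaving out each replicate. The averaged geriatric sample has sample number 1, geriatric replicate 3 number 2 and geriatric replicate 4 number 3. Samples that share a sample number did not deviate together, so the numbers were not taken as pairs. All 44 accessions matched the RefSeq symbol.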

Additional observations from a re-analysis of the deposited data

How the results depend on the processing

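In every alternative 0 of the proteasome genes passed the test (limma), with a smallest adjusted p of 0.448 when the 7 arrays were kept separate and 0.708 as reported. Over all features the number called was 7 as reported and 64 with the 7 arrays separate. It was 0 with the sample number as a block, or when geriatric replicate 4, young replicate 1 or young replicate 2 was left out. The median of the core was -0.13 with median scaling, under which the median of all features was -0.09, and -0.10 to 0.01 when replicates were left out (lowest without young replicate 3, highest without geriatric replicate 4). The median of the regulatory particle was 0.017 with the slide row as a block and within slide row 1, and -0.28 to -0.077 when replicates were left out. With quantile normalization alone 6 of 14 core subunits were higher and 15 of 17 regulatory subunits lower. With normexp background correction and quantile normalization together, and in the authors' values, 8 of 14 core subunits were higher and 14 of 17 regulatory subunits lower. With median scaling 2 of 14 core subunits were higher and 17 of 17 regulatory subunits lower. With the 7 arrays separate, which counts the shared sample as 2, the change of Psmb8 over Psmb5 was 1.13 (exact permutation p = 0.0286) and that of Psmb10 over Psmb7 was 0.66 (exact permutation p = 0.0286).

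Reversed signs concerned genes near 0 or the slide row fits, which keep only geriatric replicate 1 against the young arrays. Psmb6 was at -0.089 with median scaling, and between -0.092 and 0.054 when replicates were left out. Psmb5 was at 0.028 with the 7 arrays separate, at 0.34 with the slide row as a block and within row 1, and between -0.28 and 0.11 when replicates were left out. Psmc4 was at 0.17 and Psmd2 at 0.093 with the slide row as a block and within row 1. Psmf1 lay between -0.30 and 0.12 when replicates were left out. The cause was not tested. Without single replicates the change of Psmb8 over Psmb5 was 0.94 to 1.53, that of Psmb9 over Psmb6 0.30 to 0.92, and that of Psmb10 over Psmb7 0.55 to 0.79.

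With the sample number as a block the medians were -0.04 in the core and -0.16 in the regulatory particle. The deviations of samples with the same sample number correlated at -0.04, 0.03 and 0.04, and those of samples with different numbers at -0.11 to 0.08. These correlations cannot show whether samples with the same number share a litter or day.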

Other observations

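Some proteasome genes departed in single samples more than between groups. Psmd10, a chaperone of base assembly, was at 0.50, -1.18 and 0.15 in geriatric cells, against -0.14, 0.47 and 0.15 in young cells. Psmd8, a lid subunit, was at 1.62, 0.71 and 1.49 in geriatric cells, against 1.90, 1.36 and 1.37 in young cells. In both genes geriatric replicate 3 was the lowest sample. Psmc6, a base ATPase, was at 0.57, 1.47 and 0.31 in geriatric cells, against 0.40, 1.09 and 0.92 in young cells, with geriatric replicate 3 the highest. Psmc3ip, the recombination factor that shares the name only, was at 0.61, -0.99 and 0.54 in geriatric cells, against -0.65, -0.65 and 0.11 in young cells, a difference of 0.45 (95% interval -0.78 to 1.68, limma adjusted p = 0.904).

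Across the 42 genes, geriatric replicate 3 was the lowest of the 6 samples for 15 and geriatric replicate 4 for 12, while the averaged geriatric sample was the lowest for 1 and the highest for 8. Young replicates 1, 2 and 3 were the lowest for 4, 3 and 7 genes and the highest for 16, 9 and 4.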
